A study of Mus musculus with 2 samples.

Results

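Trimethylation of histone H3 at lysine 4 (H3K4me3) was examined upstream and downstream of the starts of isolated protein-coding genes. The genes were those of GENCODE release M21 with exactly 1 annotated transcript and no transcript start of another gene of any biotype within 5 kb, and the region of each was its start ± 5 kb. Of 21938 protein-coding genes, 4464 had 1 transcript and 2935 met both conditions, 1427 on the plus and 1508 on the minus strand. The data were H3K4me3 ChIP-seq peak lists of bone marrow-derived macrophages, primary cells grown out from marrow progenitors in culture, of C57BL/6J mice without stimulation. The series holds this 1 group with 2 biological replicates, each started from 10 ng of DNA and both entered under the same donor. The labels give neither sex nor age, and they do not say whether the replicates came from separate animals, so their spread may be partly technical. No allele, transgene or agent is given. With 2 libraries in 1 group no test between conditions exists, and the values below are counts, medians over genes and means ± SD over the replicates.

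The own list of replicate 1 held 20031 peaks covering 25.5 Mb and that of replicate 2 held 16376 peaks covering 17.8 Mb. Sequencing depth is unknown, because the lists hold no read counts. At their 5′-most start, 9 of 10 macrophage marker genes had a peak in both replicates, all but Csf1r. Of 5 markers each for T and NK cells, neutrophils and fibroblasts, 0 had a peak in both. The same held for 5 B cell and 5 dendritic cell markers, apart from Cd79b and Zbtb46 in replicate 1 alone. Of 5 erythroid markers, 2 had a peak in both replicates, Klf1 among them. In bulk chromatin, fewer cells with the mark and less mark per cell cannot be told apart.

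H3K4me3 is laid down by SET1 and MLL family methyltransferases around the starts of active and poised genes, and the SET1 and MLL2 complexes are recruited in part through proteins that bind unmethylated CpG. The nucleosome just downstream of a start, called +1, is typically the most strongly marked, while the start itself often lies in a stretch depleted of nucleosomes. Many mammalian promoters are also transcribed in the reverse direction, and nucleosomes upstream of the start can then carry the mark as well. At genes with several starts or a close neighbour, upstream and downstream of one start cannot be separated from the other, which is the reason to look at isolated genes with a single annotated transcript.

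Among the CpG counts and the exon and gene lengths compared, the CpG count upstream of the start had the closest relation to upstream reach. The sequences just before the start are therefore shown for 5 marked genes at the ends and in the middle of the range described below. Each runs 5′ to 3′ on the gene's own strand, up to 250 bp before the GENCODE start or, for Mpeg1 and Stip1, up to the RefSeq start, and every CpG is in capitals (sequence from GRCm38.p6, the assembly that mm10 names). The first pair reached far downstream and little upstream. They lie at chr6:129180365-129180614, plus strand, for Clec2d, with 4 CpG in 250 bp, and at chr19:12460529-12460769, plus strand, for Mpeg1, with 2 CpG in 241 bp.
Clec2d: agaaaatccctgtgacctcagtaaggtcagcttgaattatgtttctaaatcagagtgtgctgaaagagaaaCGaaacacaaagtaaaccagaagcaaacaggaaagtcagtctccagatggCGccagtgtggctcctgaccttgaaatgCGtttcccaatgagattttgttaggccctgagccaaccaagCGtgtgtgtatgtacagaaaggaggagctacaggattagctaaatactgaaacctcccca
Mpeg1: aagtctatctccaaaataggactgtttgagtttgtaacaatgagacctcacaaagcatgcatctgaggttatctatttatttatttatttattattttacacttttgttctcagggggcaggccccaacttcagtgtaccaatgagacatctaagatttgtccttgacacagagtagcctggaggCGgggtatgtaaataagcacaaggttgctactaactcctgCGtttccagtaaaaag
The next pair carried the mark before the start and none joined to it after. They lie at chr8:126593987-126594236, minus strand, for Irf2bp2, with 32 CpG in 250 bp, and at chr5:147188446-147188695, plus strand, for Gsx1, with 15. The near edge of the domain lay 172 and 144 bp before the start at Irf2bp2 in replicates 1 and 2, and 776 and 803 bp before it at Gsx1. The stretch shown thus lies only partly within the domain at Irf2bp2 and wholly outside it at Gsx1.
Irf2bp2: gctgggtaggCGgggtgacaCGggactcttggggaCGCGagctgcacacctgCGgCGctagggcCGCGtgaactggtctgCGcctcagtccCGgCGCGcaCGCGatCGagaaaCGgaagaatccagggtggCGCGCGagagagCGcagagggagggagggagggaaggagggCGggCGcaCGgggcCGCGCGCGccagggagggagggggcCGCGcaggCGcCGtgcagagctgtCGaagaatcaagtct
Gsx1: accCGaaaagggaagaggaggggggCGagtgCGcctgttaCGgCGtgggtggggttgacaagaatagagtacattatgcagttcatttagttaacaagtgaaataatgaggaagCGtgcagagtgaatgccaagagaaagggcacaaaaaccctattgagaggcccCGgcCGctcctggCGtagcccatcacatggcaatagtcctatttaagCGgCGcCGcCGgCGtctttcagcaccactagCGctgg
The last, Stip1 at chr19:7040027-7040217, minus strand, had nearly equal reach on both sides and holds 9 CpG in 191 bp.
Stip1: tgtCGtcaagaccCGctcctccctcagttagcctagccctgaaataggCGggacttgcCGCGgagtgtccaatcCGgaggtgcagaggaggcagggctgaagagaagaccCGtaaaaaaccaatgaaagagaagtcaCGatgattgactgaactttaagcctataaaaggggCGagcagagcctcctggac

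Genes with a peak in the separate lists of both replicates, overlapping the 1 kb on either side of the start by 1 bp or more, were called marked. Of the 2935 isolated genes, 360 were marked in both replicates, 12.3% (Wilson 95% interval 11.1 to 13.5%, counting error only), against 46.1% of all protein-coding genes. A further 75 were marked in replicate 1 alone, 0 in replicate 2 alone and 2500 in neither. Among the unmarked isolated genes were those of several sensory and epithelial families, whose other members were not examined. None of the 109 isolated olfactory receptor genes, 94 vomeronasal receptor genes, 30 taste receptor genes, 54 keratin and keratin-associated genes and 47 defensin genes was marked in either replicate. Of 26 isolated genes in a list of 80 regulators of embryonic development 0 were marked in both replicates, although developmental regulators outside that list, such as Gsx1, Hoxa4 and Foxj1, were. Of the 26, Bmp2, a secreted growth factor, and Neurog2, a neurogenic transcription factor, were marked in replicate 1 alone. None of 6 isolated genes in a list of 30 lymphocyte genes was marked. Of 9 isolated genes restricted to single organs, Npy, which encodes neuropeptide Y, was the 1 marked gene. The 3 genes of highest fold among those marked in replicate 1 alone were Xk, which encodes a membrane protein bound to the Kell blood group protein, Anp32b, which encodes an acidic nuclear phosphoprotein, and Frat1, which encodes an inhibitor of GSK3. Their folds in replicate 1, the authors' own value for each peak, were 12.9, 11.8 and 11.6, below the median of 30.9 at genes marked in both.

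CpG content divided the isolated genes by marking. The median marked gene held 28 CpG in the 1000 bp upstream of its start and 50.5 in the 1000 bp downstream, against 8 and 11 at the isolated genes not marked in both replicates. Ordered by the ratio of observed to expected CpG around the start, 14 of the lowest 978 genes were marked in both replicates (1.43%), 36 of the middle 978 (3.68%) and 310 of the highest 979 (31.7%). CpG was also asymmetric around the start. It peaked at 8.66 CpG per 100 bp in the bin centred 150 bp downstream at marked genes, with 2.18 at 550 bp upstream and 4.67 at 550 bp downstream. Of the 360 marked genes, 295 had more CpG in the downstream than in the upstream 1000 bp, and of the 2575 other isolated genes 1774 did.

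At the marked genes the mark lay mostly downstream. Peaks within 1000 bp of each other were joined into domains, and reach was the distance from the start to the outermost base of a domain on that side, limited to 5 kb, and 0 where the domain did not pass the start. The median upstream reach was 562 bp in replicate 1 and 399 bp in replicate 2, a mean of 480.5 ± 115 bp (SD, n = 2). The median downstream reach was 1261.5 bp and 1046.5 bp, a mean of 1154 ± 152 bp (SD, n = 2). The downstream medians exceeded the upstream medians in both replicates, and the lower downstream median exceeded the higher upstream one. The median over genes of downstream minus upstream reach was 740 bp in replicate 1 and 715 bp in replicate 2, a mean of 727.5 ± 17.7 bp (SD, n = 2). It thus moved less between the replicates than either side alone. Plus strand genes gave median upstream reaches of 554.5 and 381.5 bp and downstream reaches of 1271.5 and 1044 bp in replicates 1 and 2. Minus strand genes gave 570 and 412 bp upstream and 1226.5 and 1048.5 bp downstream, so the asymmetry followed the gene and not the chromosome.

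Counted by gene, downstream reach was the longer in both replicates at 309 of 360 marked genes, 85.8%, against 79.1% of all marked protein-coding genes. Upstream reach was the longer in both at 35, or 9.72%, against 15.5% of all marked protein-coding genes. At the other 16 genes the longer side differed between the replicates or the sides were equal. Long domains were nearly all on the downstream side. A reach of 2000 bp or more was found downstream at 90 genes in replicate 1 and 56 in replicate 2, and upstream at 5 and 3. Such reaches were not counted over the other marked protein-coding genes. At 2050 bp these were also covered more often downstream, at 17.9% and 11.3%, than upstream, at 4.70% and 2.81%. Downstream reach passed the 5 kb limit at 3 genes in replicate 1 and 1 in replicate 2, and upstream reach at 0 in each. Where the gene had an intron, the mark usually ran into it, since downstream reach exceeded the first exon at 296 of 309 genes of 2 or more exons in replicate 1 and at 286 of 309 in replicate 2. This share was not counted over the other marked genes, so it does not set the isolated genes apart.

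**Figure D1:**
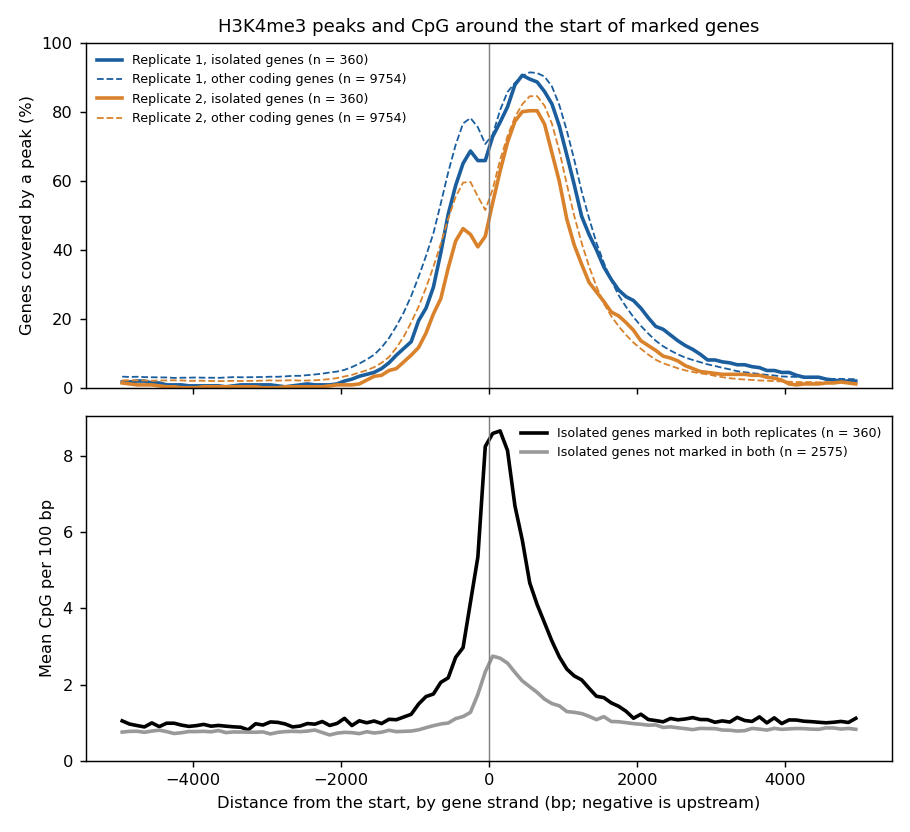
Upper panel: percent of marked genes covered by a peak in each 100 bp bin (y axis) by distance from the start in bp, by gene strand (x axis), for isolated genes (thick lines) and all other protein-coding genes (dashed lines) in each replicate. Lower panel: mean CpG count per 100 bp for isolated genes marked in both replicates and for those not. Coverage of isolated genes is highest at 450 bp downstream in replicate 1 and 550 bp downstream in replicate 2 and falls off faster on the upstream side, while CpG is highest at 150 bp downstream.

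The profile across the start showed the same asymmetry in bins of 100 bp. Coverage of the 360 genes was highest in the bin at 450 bp downstream in replicate 1, at 90.6%, and at 550 bp downstream in replicate 2, at 80.3%. At 1050 bp upstream 13.3% and 9.44% of genes were covered, and at 1050 bp downstream 67.5% and 48.9%. At 2050 bp the values were 1.11% and 0.833% upstream and 23.1% and 13.6% downstream. Upstream of the start the profile had a shallow second maximum, of 68.6% at 250 bp upstream in replicate 1 and 46.1% at 350 bp upstream in replicate 2. Between this and the start coverage was lower, at 65.8% and 40.8% in the bin 150 bp upstream. From 50 bp before to 50 bp after the start it went from 65.8% and 43.9% to 72.8% and 53.6%. Upstream and downstream reach of a gene were nearly unrelated within a replicate (Spearman correlation 0.018 and 0.0022 across 360 genes). These are genes within the same library, not independent replicates, and no test was made. The length on either side thus told little of the length on the other.

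The strongest summit, the highest point of the peak of greatest fold near the start, lay a median of 394 bp downstream in replicate 1 and 412.5 bp downstream in replicate 2, a mean of 403.25 ± 13.1 bp (SD, n = 2). It was downstream of the start at 306 genes in replicate 1 and 310 in replicate 2, and at 302 in both. At the other marked protein-coding genes the median lay 425.5 bp downstream in each replicate. A peak covered the start itself in both replicates at 179 genes, 49.7%, against 53.2% of all marked protein-coding genes. At 45 genes both replicates had peaks on both sides and a gap over the start. The domain lay wholly downstream in both at 34 genes, and wholly upstream in both at 9. Read by replicate, a gap was found at 18.3% and 18.1% of the 360, against 20.5% and 24.2% of the other marked protein-coding genes. Domains lay wholly downstream at 9.44% and 25.6%, against 7.38% and 19.7%. They lay wholly upstream at 2.5% and 6.67%, against 1.05% and 2.74%. In genes with a gap, 66 in replicate 1 and 65 in replicate 2, the uncovered stretch had a median of 390 and 426 bp, with 156 and 195 bp before the start and 207.5 and 258 bp after it. The downstream peak had the higher fold at 51 of 66 and 52 of 65 of these genes, with a median downstream to upstream ratio of 1.63 and 1.57 within each list. Neither value was taken over the other marked genes with a gap, so they do not set the isolated genes apart. A gap by definition asks for peaks on both sides, so some reach on each side was fixed in advance. Genes with a gap in both replicates had a median reach of 1004 and 926 bp upstream and 1638 and 1421 bp downstream. Nfil3, a basic leucine zipper transcription factor, was 1 of them, named after its values were seen, and reached 2000 and 1772 bp upstream and 3077 and 2920 bp downstream. Txn1, which encodes thioredoxin, was another and reached 1354 and 1089 bp upstream and 1690 and 1631 bp downstream.

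The start was covered at 251 genes in replicate 1 and at 179 in replicate 2, and all 179 were among the 251. Of the 251, replicate 2 held the domain wholly downstream at 43, a gap at 20 and the domain wholly upstream at 9. Domain edges of replicate 2 were drawn in on both sides: replicate 1 reached farther upstream at 337 genes, with a median difference over all genes of 123.5 bp, and farther downstream at 346, with a median of 183 bp. Replicate 2 also had the smaller peak list, and the part of that difference in these edges was not tested. The order of genes was nevertheless similar in the replicates, with Spearman correlation 0.867 for upstream reach, 0.911 for downstream reach and 0.888 for their difference across 360 genes.

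Mpeg1, which encodes perforin-2, a pore-forming protein of macrophages that kills engulfed bacteria, was among the 5 genes of largest downstream minus upstream reach. Its start is at chr19:12460779, plus strand, its first exon is 83 bp long and the gene spans 4505 bp. Upstream reach was 530 bp in replicate 1 and 276 bp in replicate 2, and downstream reach was 5000 bp (the limit) and 4893 bp. The outer edges of the domain thus spanned the whole gene in both replicates. Clec2d, which encodes a C-type lectin recognised by an inhibitory receptor of NK cells, has its start at chr6:129180615, plus strand, and a first exon of 133 bp. Its upstream reach was 156 and 105 bp and its downstream reach 5000 (the limit) and 4778 bp, over most of a gene of 5920 bp. C3ar1, the receptor for the complement fragment C3a, has its start at chr6:122856161 on the minus strand, and reached 16 and 0 bp upstream and 4465 and 3804 bp downstream, within a gene of 9024 bp. In replicate 2 its domain began 28 bp after the start.

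Tmem206, which encodes an acid-activated chloride channel, reached 10 and 0 bp upstream and 4722 and 3504 bp downstream. B4galt6, which encodes a lactosylceramide synthase, had the largest difference, with 0 bp upstream and 5000 bp, the limit, downstream in both replicates. Its domain began 567 bp after the GENCODE start in replicate 1 and 638 bp after it in replicate 2, and RefSeq also lists a start 7163 bp downstream, so the annotation does not settle from which start this domain should be measured. In all, 56 genes had a downstream reach of at least 2000 bp in both replicates, genes of general cell functions such as Stt3b, Rab10 and Laptm4a among them. Further examples were named after their values were seen. Cd93, a receptor on myeloid and endothelial cells, reached 4901 and 4002 bp downstream against 544 and 506 bp upstream. Cd53, a tetraspanin of leukocytes, reached 4682 and 2862 bp against 79 and 26 bp. B2m, the light chain of MHC class I in nearly all nucleated cells, reached 4542 and 3870 bp against 650 and 397 bp. The chemokine genes Ccl4 and Ccl7 reached 2567 and 2260 bp and 2593 and 2423 bp downstream, past the ends of genes of 2100 and 1814 bp. Their upstream reaches were 240 and 137 bp and 202 and 211 bp.

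**Figure D2:**
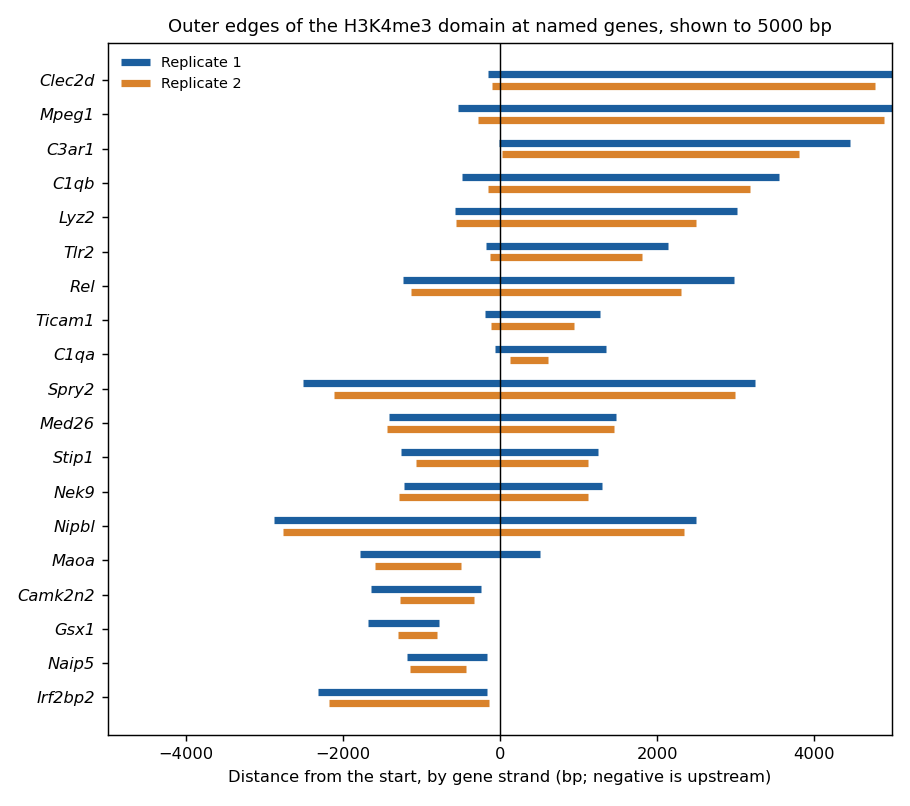
Outer edges of the joined H3K4me3 domain at named genes (rows) in replicate 1 and replicate 2 (bars), by distance from the start in bp, by gene strand, shown to 5000 bp. Uncovered stretches within a domain are not drawn. Bars of Clec2d, Mpeg1 and C3ar1 lie almost wholly downstream of the start, those of Med26, Stip1 and Nek9 extend about equally to both sides, and those of Irf2bp2, Naip5, Gsx1 and Camk2n2 lie wholly upstream.

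At 9 genes the upstream reach was 0 bp and the downstream reach 2000 bp or more in both replicates. They were B4galt6, Gas6, Klf2, Haspin, Hist1h1c, Angptl6, Aunip, Tmem115 and 2310034G01Rik. Gas6, the ligand of the receptors that drive uptake of dying cells, reached 4167 and 2562 bp downstream. Klf2, a transcription factor that restrains myeloid activation, reached 3278 and 2603 bp, more than its gene length of 2624 bp in replicate 1. All 9 had more CpG downstream than upstream, as did 295 of the 360 marked genes (81.9%), so this does not set the 9 apart. Their median was 22 CpG upstream and 66 downstream, against 28 and 50.5 over the 360.

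The genes that leaned upstream were fewer and had the lower folds. Over the 35 genes with the longer upstream reach in both replicates the median fold was 17.2 in replicate 1 and 6.26 in replicate 2, against 33.1 and 12.3 over the 309 that leaned downstream. Their median CpG counts were 44 upstream and 59 downstream, against 26 and 50. Irf2bp2, which encodes a corepressor that binds IRF2, leaned farthest upstream. Its start is at chr8:126593986 on the minus strand, the upstream reach was 2315 and 2186 bp and the downstream reach 0 bp in both replicates. This depends on which domain is read as the start's own, because counting every covered base within 5 kb gave 1895 bp more downstream than upstream, and joining peaks within 2500 bp gave a difference of 2749.5 bp downstream.

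Gsx1, a homeobox gene of the developing nervous system, reached 1688 and 1298 bp upstream and 0 bp downstream, with the near edge of its domain 776 and 803 bp before the start. Its folds of 7.19 and 2.96 were low for marked genes. Camk2n2, which encodes an inhibitor of the kinase CaMKII, reached 1650 and 1278 bp upstream and 0 bp downstream. Maoa, monoamine oxidase A, reached 1783 and 1597 bp upstream and 503 and 0 bp downstream, so the replicates differed in whether the mark passed the start. Naip5, which encodes a cytosolic sensor of bacterial flagellin, reached 1180 and 1152 bp upstream and 0 bp downstream. It held only 8 CpG in the 1000 bp upstream, against a median of 44 over the 35 genes that leaned upstream. RefSeq lists 6 starts for Naip5, from −4607 to 602 bp relative to the GENCODE start (negative is upstream), so its domain lies between annotated starts. Further wholly upstream genes were Foxj1, a regulator of motile cilia, with 632 and 619 bp upstream, Olfml2b with 682 and 568 bp, Prkaa2, a catalytic subunit of AMPK, with 605 and 502 bp, and Lonrf1 with 657 and 541 bp, all named after their values were seen. The near edges of these 4 lay 35 to 120 bp before the start in replicate 1, nearer than that of Gsx1. Over the 9 wholly upstream genes the median fold was 16.8 in replicate 1 and 4.57 in replicate 2, against 30.9 and 11.6 over the 360. The erythroid gene Klf1, which encodes a transcription factor of red cell precursors, lay on the opposite side, with 0 bp upstream and 1978 and 1141 bp downstream and folds of 14.4 and 4.31.

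Reach of 2000 bp or more upstream in both replicates was found at 3 genes, Irf2bp2, Nipbl and Spry2. Nipbl, the loader of cohesin onto chromatin, reached 2886 and 2765 bp upstream and 2495 and 2340 bp downstream. Spry2, an inhibitor of receptor tyrosine kinase signalling, reached 2509 and 2110 bp upstream and 3245 and 2992 bp downstream. Both domains were wide on each side, with the upstream side the longer at Nipbl and the downstream side at Spry2. Among broad domains the most even were those of Stip1, a co-chaperone that links Hsp70 and Hsp90, Med26, a subunit of Mediator, and Nek9, a mitotic kinase. Stip1 reached 1267 and 1070 bp upstream and 1242 and 1125 bp downstream. Med26 reached 1416 and 1445 bp upstream and 1479 and 1451 bp downstream. Nek9 reached 1223 and 1290 bp upstream and 1304 and 1117 bp downstream. The sides of these genes differed by less than the replicates allow to order: taken from replicate 1 alone the difference was −25 bp at Stip1 and 81 bp at Nek9, against 15 bp and −46 bp from both.

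The 3 genes of highest fold by mean rank serve general cell functions and reached farther downstream than upstream. Tgoln1, a protein of the trans-Golgi network, reached 828 and 790 bp upstream and 2463 and 2004 bp downstream. Mad2l1bp, which silences the spindle checkpoint, reached 409 and 458 bp upstream and 1171 and 1121 bp downstream. Emc7, a subunit of the endoplasmic reticulum membrane complex, reached 754 and 620 bp upstream and 1353 and 1258 bp downstream. Fold went with downstream reach more than with upstream reach across the 360 genes, with Spearman correlation 0.361 and 0.463 downstream and 0.23 and 0.271 upstream. Height and edges come from the same peaks, so these values are no independent measures.

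The 21 marked isolated genes of 4 lists, for macrophages, pattern recognition, chemoattractant and purine receptors and inducible genes, all reached farther downstream than upstream in both replicates. Since 309 of the 360 marked isolated genes (85.8%) and 79.1% of all marked protein-coding genes did the same, the direction sets neither these lists nor any of them apart. What is given below for each list is its length of reach and its share of marked genes, to be read against 12.3% of isolated and 46.1% of all protein-coding genes. Of 6 isolated genes in a macrophage list of 43 symbols, 5 were marked in both replicates and Timd4, a receptor of some resident macrophages, in neither. All 5 lay above the median of the 360 in downstream minus upstream reach in replicate 1. In replicate 2 C1qa lay below it, at 610 bp against 715 bp. The median downstream reach of the 5 was 3557 and 3189 bp and their median upstream reach 530 and 276 bp. Lyz2, the lysozyme of myeloid cells, reached 576 and 565 bp upstream and 3013 and 2501 bp downstream. C1qb, which encodes a chain of the first complement component, reached 479 and 158 bp upstream and 3557 and 3189 bp downstream. The neighbouring C1qa, which encodes another chain, had a narrower domain, with 71 and 0 bp upstream and 1349 and 610 bp downstream, and folds of 8.59 and 3.13.

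Of 5 isolated genes for pattern recognition and its signalling, 4 were marked in both replicates. In downstream minus upstream reach, Tlr2, Ticam1 and Rel lay above the medians of the 360, 740 and 715 bp, in each replicate. Il10 lay below in replicate 1, at 374 bp, and above in replicate 2, at 1068 bp. Tlr9, a receptor for unmethylated CpG DNA, was marked in replicate 1 alone. Tlr2, a receptor for bacterial lipoproteins, reached 180 and 134 bp upstream and 2137 and 1813 bp downstream. Ticam1, the adaptor TRIF of TLR3 and TLR4, reached 192 and 115 bp upstream and 1274 and 948 bp downstream. Rel, a subunit of NF-κB, was broader, with 1232 and 1140 bp upstream and 2978 and 2311 bp downstream. Il10, an anti-inflammatory cytokine, differed most between the replicates on the upstream side, with 1401 and 233 bp, while it reached 1775 and 1301 bp downstream. The rank of Il10 by asymmetry therefore rests on which replicate is read.

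Of 13 isolated receptor genes for chemokines, purines and lipid mediators, 7 were marked in both replicates, against 12.3% of all isolated genes. Besides C3ar1 these were Ccr1, Ptafr, Gpr65, Cxcr3, P2ry13 and Adora2b. Ptafr, the receptor for platelet-activating factor, reached 892 and 736 bp upstream and 3331 and 3253 bp downstream. Gpr65, a proton-sensing receptor, reached 137 and 44 bp upstream and 2663 and 2504 bp downstream. Ccr1, a chemokine receptor of myeloid cells, reached 13 and 30 bp upstream and 4071 and 1375 bp downstream, so its great length was seen in replicate 1 only. All 5 isolated immediate early and inducible genes, Btg2, Ier5, Ier5l, Klf2 and Rhob, were marked in both replicates. Ier5, a gene of 1 exon that responds to growth factors, reached 174 and 109 bp upstream and 2996 and 2824 bp downstream. Rhob, which encodes an inducible small GTPase of 1 exon, reached 1309 and 909 bp upstream and 2923 and 2715 bp downstream. Hprt, a purine salvage enzyme and the 1 isolated gene of a list of core cell functions, reached 0 bp upstream and 2249 and 1428 bp downstream. The earlier results on these data were known when these lists were drawn up, and the counts describe the lists only.

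**Figure D3:**
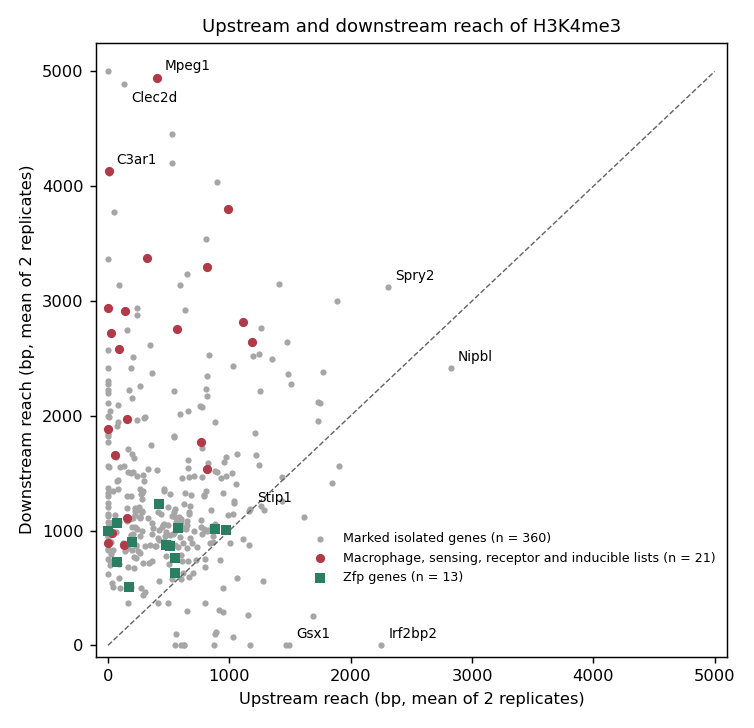
Upstream reach (x axis, bp) against downstream reach (y axis, bp) of the 360 marked isolated genes, each a mean of 2 replicates. Red points are the 21 marked genes of the macrophage, pattern recognition, receptor and inducible gene lists, green squares are the 13 marked Zfp genes, and the dashed line marks equal reach. All 21 red points lie above the line, most Zfp genes lie near a downstream reach of 1000 bp, and the genes that lean upstream lie below the line.

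Larger gene families were marked in part, and their counts are again to be read against 12.3% of isolated and 46.1% of all protein-coding genes. Of 28 isolated zinc finger genes of the Zfp series 13 were marked, and 3 of the 13 lay above the median difference of the 360. Their median upstream reach was 495 and 462 bp and their median downstream reach 917 and 868 bp. Zfp11 was close to these medians, with 495 and 462 bp upstream and 917 and 837 bp downstream. Rab8b, a GTPase of vesicle traffic, reached 688 and 620 bp upstream and 3695 and 2770 bp downstream, whereas Rap2c, a Ras-related GTPase, was longer upstream, with 2119 and 1681 bp against 1680 and 1447 bp. Of 32 isolated Tmem genes 13 were marked, with medians of 326 and 72 bp upstream and 1157 and 967 bp downstream. Marked in both replicates were 1 of 26 isolated solute carrier genes, 2 of 27 cytochrome P450 genes, 2 of 22 genes named Gpr and 2 of 11 genes named Trim or Rnf.

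Upstream reach was longer where the sequence upstream of the start held more CpG, and downstream reach varied little with it. The 360 genes were divided into 3 groups of 120 by their CpG count in the 1000 bp upstream. The median upstream reach was 287 and 84 bp in the group of lowest count, 557.5 and 416.5 bp in the middle group and 937 and 786 bp in the highest. The median downstream reach was 1331.5 and 1046.5 bp, 1161 and 972.5 bp, and 1402 and 1125 bp. Downstream reach was the longer in both replicates at 116, 108 and 85 of 120 genes, and upstream reach at 2, 7 and 26. The Spearman correlation between upstream CpG count and upstream reach was 0.656 and 0.547 across the 360 genes, and between upstream CpG count and downstream reach 0.005 and −0.011.

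Divided by downstream CpG count instead, the median downstream reach was 1123 and 876.5 bp in the lowest group, 1168 and 1007.5 bp in the middle group and 1553 and 1302.5 bp in the highest, with a Spearman correlation of 0.205 and 0.194. Upstream reach rose over these groups too, with medians of 388 and 153.5 bp, 565.5 and 443 bp, and 730.5 and 559 bp. Its Spearman correlation with downstream CpG count was 0.320 and 0.180, so downstream CpG count did not go with downstream reach alone. All points come from the same libraries. Among macrophage genes, several had few CpG and wide downstream domains. Lyz2 had 4 CpG upstream and 10 downstream, Mpeg1 12 and 11, and C1qb 18 and 10. Other long downstream domains of few CpG, named after their values were seen, were at Cd53, with 3 CpG upstream and 2 downstream, and at Slfn2, with 6 and 7. Slfn2, an interferon-inducible gene of leukocytes, reached 793 and 827 bp upstream and 3717 and 3356 bp downstream.

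**Figure D4:**
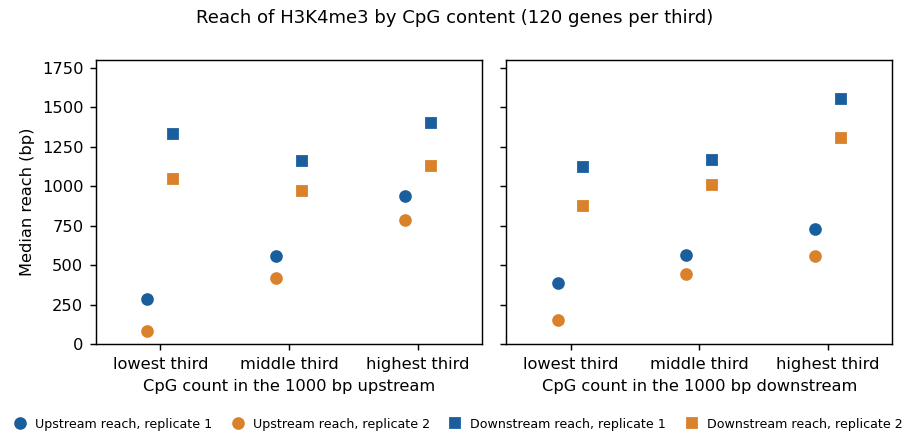
Median upstream reach (circles) and downstream reach (squares), in bp, of marked isolated genes in replicate 1 (blue) and replicate 2 (orange), in 3 groups of 120 genes by CpG count in the 1000 bp upstream (left panel) or downstream (right panel) of the start. In the left panel upstream reach goes from 287 and 84 bp in the lowest group to 937 and 786 bp in the highest, while downstream reach lies between 972.5 and 1402 bp throughout.

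Reach was also set out by exon and gene structure. In 3 groups of 103 genes by first exon length, among genes of 2 or more exons, the median downstream reach was 1171 and 981 bp, 1176 and 1001 bp, and 1403 and 1138 bp from short to long. In 3 groups of 120 by gene length it was 1226.5 and 1030.5 bp, 1248 and 1056 bp, and 1285 and 1076.5 bp. The 51 marked genes of 1 exon had a median upstream reach of 657 and 534 bp and a downstream reach of 1376 and 1099 bp. Among all isolated genes 766 had 1 exon.

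A pair of short motifs were searched in the sequence before the start. TATAAA, a form of the TATA box, on the sense strand from 40 to 15 bp before the start, was present at 8 of 360 marked genes (2.22%), at 170 of 2575 other isolated genes (6.60%) and at 2.42% of all protein-coding genes. Il10 was 1 of the 8. The 8 had a median upstream reach of 711.5 and 339 bp and a downstream reach of 1643.5 and 1202 bp. GAGGAAGT, a sequence of the kind bound by ETS family factors such as PU.1, on either strand in the 250 bp before the start, was present at 15 of 360 marked genes (4.17%), 67 of 2575 other isolated genes (2.60%) and 2.37% of all protein-coding genes. It was at 3, 5 and 7 of 120 genes from the lowest to the highest group by downstream minus upstream reach. A match is a description of the sequence and not a site.

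The position of the start was compared with RefSeq for the 348 of 360 marked genes with a RefSeq mRNA of the same symbol. A RefSeq start lay within 50 bp of the GENCODE start at 289 of them, and at 192 it was the only RefSeq start of the gene. Isolation was set on GENCODE transcript starts and not on gene bodies. Of the 360, 267 had no body of another gene within 5 kb of the start. Values on either side of the 5 kb condition were as follows. Of the 179 isolated genes whose nearest other start was 5001 to 6000 bp away 19 were marked, with median upstream reaches of 412 and 307 bp and downstream reaches of 1349 and 1032 bp. Of 170 genes left out because that start was 4001 to 5000 bp away 21 were marked, with 676 and 596 bp upstream and 1362 and 1234 bp downstream.

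The other 9754 marked protein-coding genes gave the same order of sides, measured at their 5′-most start. Their median upstream reach was 703 and 560 bp and their downstream reach 1349 and 1160 bp, with a median difference of 661 and 657 bp. At 1050 bp upstream 26.6% and 18.9% of them were covered, against 13.3% and 9.44% of the isolated genes. Downstream reach was the longer at 81.9% and 81.2% of them in replicates 1 and 2, against 89.2% and 86.9% of the isolated genes. Isolated genes of 2 or more transcripts, 4571 marked, had median upstream reaches of 568 and 399 bp, close to those of the 360, and longer downstream reaches of 1382 and 1189 bp. Their median difference was 843 and 835 bp, larger than the 740 and 715 bp of the 360. Over isolated genes of any number of transcripts, the 360 included, 93.1% reached farther downstream, so the asymmetry was not particular to genes of 1 transcript. These groups of genes come from the same libraries, and no test of their difference was made.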

How the data were processed

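H3K4me3 peaks of the 2 replicates were read from the lists of positions that the authors deposited in the narrowPeak layout. Per the deposited provenance texts, the authors made a pseudoreplicated list from each replicate's own alignments and, from both replicates, a pooled pseudoreplicated list and a replicated list. The assembly is mm10, per the labels. For the aligner, the peak caller and the cut-offs, nothing is given in the sources used here. Each deposited peak carries a fold (a ratio), −log10 p and −log10 q values and a display score. The fold was used to pick the strongest summit and to rank peaks within a list, −log10 p for a stricter list of 15000 peaks, and the score was not used. What the fold is relative to is not stated. Depth is unknown, so no precision from depth can be given.

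Peak ends lay within GRCm38.p6 on all 21 chromosomes compared. Genes and starts came from GENCODE M21, and RefSeq was matched by symbol. Reach was computed with Python 3.11.15, numpy 2.4.6 and pandas 2.3.3, and samtools 1.23.1 indexed the genome. Reach was tested on simulated data, where the planted outcome was recovered at 2709 of 2709 starts, including starts planted to be unmarked. The labels' replicate numbers name the libraries, and there is 1 group. Wilson intervals of 95% treat genes as independent.

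The genes and lists described were chosen with earlier results of these data known. Named genes were, among those marked in both replicates and by the mean over replicates, the 5 of largest and the 5 of smallest downstream minus upstream reach, the 5 of longest total reach, the 3 of highest fold rank and the 3 most even ones in the upper quartile of total reach. Added to these were all marked genes of the macrophage and pattern recognition lists and the 3 of highest fold marked in 1 replicate. Some of these genes are not reported here. Other genes were named after their values were seen. Alternatives varied the joining distance, the limit of reach, the peak list, the definition of a marked gene and the choice of genes. They are reported in the closing section, and 3 of them were chosen after seeing the data.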

Additional observations from a re-analysis of the deposited data

How the results depend on the processing

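No result changed direction apart from 4 of the 26 named genes. The median upstream reach stayed between 399 and 502 bp and the median downstream reach between 1046.5 and 1278 bp over 17 alternatives, each within the spread of the replicates. No paired analysis was possible because there is 1 group. Limits are the 2 libraries of 1 donor entry, the unknown depth, the authors' thresholds, which set every edge, and starts taken from annotation. The cause of each change below was not tested, except that the settings that ask for a covered start or wider isolation measure fewer genes.

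The median downstream minus upstream reach, 727.5 bp, was 652.5 bp when all covered bases on each side were counted, 789 bp with the 15000 peaks of highest −log10 p, and 621 bp when a peak had to cover the start. It was 651 bp in the authors' pooled list, 689 bp in their replicated list, 696 bp with no other start within 10 kb, 828 bp for isolated genes of any number of transcripts, 753 bp for genes of 5 kb or longer and 769.5 bp with 1 RefSeq start within 50 bp, chosen after seeing the data. Leaving out a replicate gave 620 to 715 bp. The share reaching farther downstream, 88.06%, was 91.6% with a covered start, 85.4% in the pooled list, 86.1% in the replicated list, 93.1% with any number of transcripts and 85.3 to 86.9% with a replicate left out. A covered start left 179 marked genes and 3 macrophage genes, and wider isolation also 3. With a replicate left out, 360 to 435 genes were marked. The summit at 403.25 bp moved to 428.75 bp with the 15000 peaks, 370 bp in the pooled and 377 bp in the replicated list, 499.75 bp for peak centres and 355 to 412.5 bp with a replicate left out.

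Of 387 values for named genes 8 changed sign. Irf2bp2 came to 2749.5 bp with joining within 2500 bp and 1895 bp by covered bases, and Med26 to −9 bp by covered bases. Nek9 came to 386 bp with the 15000 peaks, 1 bp in the pooled list, 1 bp in the replicated list and 81 bp without replicate 2 (−173 bp without replicate 1), and Stip1 to −25 bp without replicate 2 (55 bp without replicate 1).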
